A study of Mus musculus with 4 samples.

Results

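The cells described here are Plzf lu/lu germ cells split by whether a Gfra1 transcript was counted in them. Gfra1 encodes the receptor that binds GDNF, a growth factor from Sertoli cells, and passes its signal to the kinase RET. Downstream of RET, SRC family kinases and the ERK pathway raise transcription factors such as ETV5 and the EGR family, and in the testis this pathway is known for the self-renewal of spermatogonial stem cells. Retinoic acid acts in the other direction: it raises Stra8 and, with KIT, marks spermatogonia that have entered differentiation.

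The mice were 4 wk old and all carried the Eomes-iCreERt2-tdTomato knock-in allele. Testis cells with tdTOMATO fluorescence were sorted singly into wells, and transcripts, read at the 3′ end, were counted as unique molecular identifiers (UMIs), 1 for each captured molecule. Plzf lu/lu mice carry the luxoid mutation of Plzf, listed in the files as Zbtb16, and Plzf +/+ mice served as controls. Plate 3 held Plzf lu/lu cells, plates 1 and 2 held Plzf +/+ cells, and plate 4 was divided between the genotypes by well, so there were 2 Plzf lu/lu and 3 Plzf +/+ libraries. The sort was gated with littermates that lacked the reporter, the labels name plates but no mice, and how far mice differed cannot be read from these libraries.

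Members were chosen by a measured value. A Plzf lu/lu cell was Gfra1-positive with at least 1 Gfra1 UMI and Gfra1-negative with 0, provided that it had at least 2000 UMIs, fewer than 10 UMIs summed over the spermatid genes Prm1, Prm2, Tnp1, Tnp2, Oaz3 and Smcp, and fewer than 3 UMIs of Clu, a gene that Sertoli cells express strongly. Of 352 Plzf lu/lu cells, among 1249 cells in the series, 77 were left out and 275 remained, 113 Gfra1-positive and 162 Gfra1-negative. Plate 3 gave 101 and 150 of these, and plate 4 gave 12 and 12. The shallowest cell kept had 2027 UMIs and the deepest cell left out for depth had 1993. The most spermatid UMIs in a kept cell were 9 and the fewest in a cell left out for them were 11, while 7 kept cells had 2 Clu UMIs and 6 cells with 3 were left out. Of the 113 Gfra1-positive cells 42 had exactly 1 Gfra1 UMI, so a cell just inside the rule differed by a single molecule from a cell outside it.

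Gfra1-positive cells were deeper. Their median was 8914 UMIs against 4804 in Gfra1-negative cells. Cells of the 2 states were therefore paired 1 to 1 within a library when their totals lay within 0.2 log2 units. This gave 80 pairs on plate 3 and 7 on plate 4, 87 in all, and left 26 Gfra1-positive and 75 Gfra1-negative cells unpaired. After pairing, the medians on plate 3 were 7458 and 7305 UMIs in Gfra1-positive and Gfra1-negative cells, and on plate 4 they were 7385 and 7272. The median number of genes per cell on plate 3 was 3497 in Gfra1-positive and 3249 in Gfra1-negative cells. Mitochondrial transcripts made up a median of 3.78% and 4.19% of the UMIs on plate 3 and 4.33% and 5.13% on plate 4, in the same order. The paired Gfra1-positive cells held 2.30 Gfra1 UMIs each on plate 3 and 2.29 on plate 4.

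**Figure D1:**
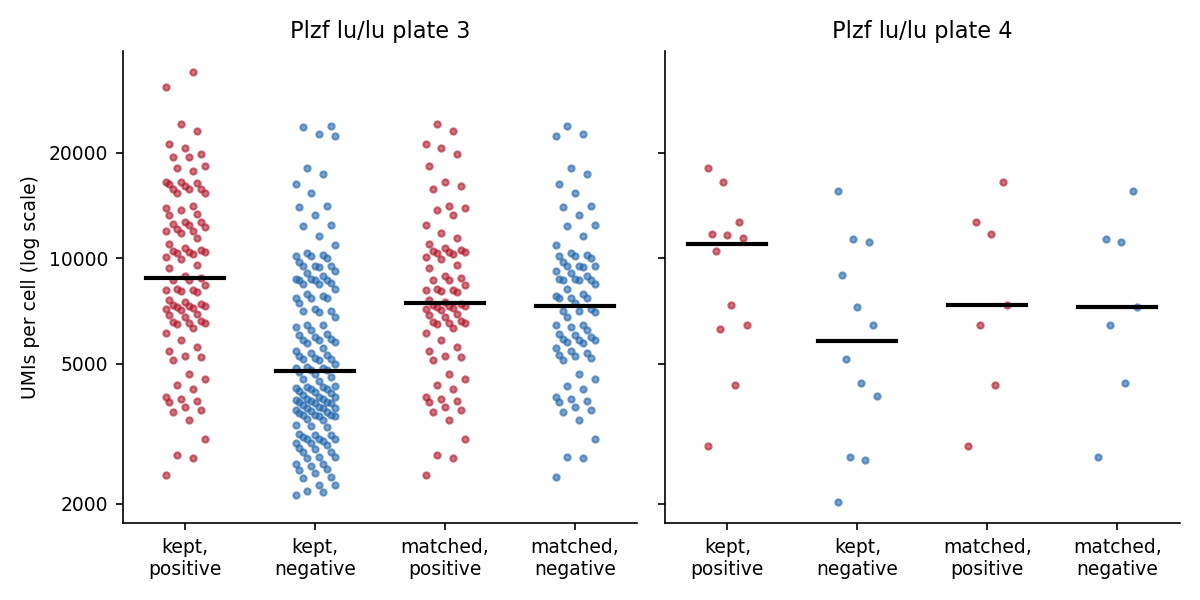
UMIs per cell (log scale) for each Plzf lu/lu library, in all kept cells and in the matched cells, with Gfra1-positive cells in red, Gfra1-negative cells in blue and black bars at the medians. The kept Gfra1-positive cells sit higher than the Gfra1-negative cells, and after matching the medians are 7458 and 7305 on plate 3 and 7385 and 7272 on plate 4.

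The sorted cells were checked against their markers before the comparison. Dazl, a germ cell RNA-binding protein, had a UMI in all 87 matched Gfra1-positive and all 87 matched Gfra1-negative cells, and Ddx4 in 81 and 80 of them. Zbtb16, the mutated gene, stood at 20.6 and 14.9 CPM (counts-per-million of UMIs) in the kept Plzf lu/lu cells of plates 3 and 4. In kept Plzf +/+ cells it stood at 79.8 on plate 1, 62.1 on plate 2 and 84.5 on plate 4, with no overlap between the genotypes. The libraries held 254514 to 2608702 UMIs, the smallest being the 38 Plzf lu/lu cells of plate 4. Of the 376 well barcodes 358 were used in more than 1 library, since every plate carries the same set, and on plate 4 none was shared between the genotypes. The labels give the wells of plate 4 up to C14 to Plzf lu/lu and those from C16 to Plzf +/+. Before well C16 lay 5 Plzf +/+ cells. None of them was among the matched cells.

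To ask which genes went with Gfra1, the UMIs of the matched cells were summed for each library and state, and Gfra1-positive was compared with Gfra1-negative within libraries by the quasi-likelihood test of edgeR. The same fit held the 220 pairs of the 3 Plzf +/+ libraries, so that both genotypes shared 1 estimate of the spread with 3 residual degrees of freedom, and a gene was called when its p-value, adjusted over the 8675 genes tested, was under 0.05. In Plzf lu/lu cells 38 genes were higher in the Gfra1-positive state (0.438% of those tested) and 24 were lower (0.277%). Among the genes of smallest p that rose were Malat1, Ret, Egr2, Fyn, Etv5, Chd4, Nipbl, Mcam and Ccnd2. Among those that fell were Stra8, Crabp1 and Dlk1, beside several gene models without a name. The calls rested on plate 3 and on the shared spread. With the Plzf lu/lu libraries alone 5 genes were higher and 9 lower. DESeq2 called 0 and 3 of the 8675 genes. It gave 116 and 84 at an unadjusted p under 0.05. Together these were below the share of 0.05 expected without any difference. Without plate 3 the 7 pairs of plate 4 were the only Plzf lu/lu library, and nearly all calls were lost.

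Among the receptors, Ret, the kinase that GFRA1 activates, rose. Its level was 139 CPM (here and below after TMM normalization) in Gfra1-positive and 38.5 in Gfra1-negative cells of plate 3, and 76.0 and 65.5 on plate 4, where these levels rested on 5 and 4 UMIs. The fitted log2 fold change was 1.66 ± 0.33 (SE; edgeR adjusted p = 0.000442), or 3.17-fold. A Ret UMI was present in 54 of 87 Gfra1-positive and 23 of 87 Gfra1-negative cells, and the Gfra1-positive cell had more Ret UMIs in 50 pairs and fewer in 18. In cells left out for 3 or more Clu UMIs, of both genotypes, the share with a Ret UMI was 16.7%. Dazl had a UMI in 61.7% of those cells, so they also held germ cell transcripts. The difference was large on plate 3 and small on plate 4, where the log2 fold change alone was 0.19. The gene lies on chromosome 6 at 118151748 to 118197744 of GRCm38 in RefSeq.

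Sdc4, a heparan sulfate proteoglycan of the cell surface, was higher in the Gfra1-positive cells of both libraries, at 730 against 465 CPM on plate 3 and 623 against 360 on plate 4 (log2 fold change 0.67 ± 0.16, edgeR adjusted p = 0.00494). Of the 13 receptor and coreceptor genes of the list, Gfra1 chose the cells and 5 others had enough UMIs to be tested. Of these Ret and Sdc4 rose, beside 0.438% of all genes tested. Gfra4, Sdc1 and Fgfr1 had log2 fold changes of -0.55, -0.05 and -0.39 with edgeR adjusted p of 0.923, 0.997 and 0.970. Their 95% intervals were wide, for example -1.83 to 0.73 for Gfra4. Gfra2 was counted 12 times in Gfra1-positive and 2 times in Gfra1-negative cells of plate 3, and Gfra3, Fgfr2, Fgfr3, Fgfr4 and Sdc3 had at most 3 UMIs in any sum. Ncam1 had none in the Plzf lu/lu cells, and the limit that a count of 0 allows is 3 UMIs.

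Fyn, a SRC family kinase, stood at 129 against 48.1 CPM on plate 3 and 258 against 65.5 on plate 4 (log2 fold change 1.51 ± 0.31, edgeR adjusted p = 0.000563). It had a UMI in 53 of 87 Gfra1-positive and 26 of 87 Gfra1-negative cells and was higher in both libraries.

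The next list holds transcription factors and feedback genes that respond to GDNF and ERK. Of its 28 genes 20 were tested, 6 rose and none fell, where 0.438% and 0.277% of all genes did. Of the 20, 19 had a log2 fold change above 0, against 48.3% of all genes tested, and their median was 1.02, against -0.01 over all genes. In the libraries taken alone the list median of log2 CPM ratios (1 CPM added) was 0.93 on plate 3 and 1.56 on plate 4. The same genes had a median of 0.75 in the Plzf +/+ contrast, where 7 rose beside 1.16% of all genes.

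Etv5, an ETS factor that GDNF raises and that stem cells need, was at 128 against 40.1 CPM on plate 3 and 60.8 against 16.4 on plate 4. It rose with a log2 fold change of 1.68 ± 0.35 (edgeR adjusted p = 0.000833), and it had a UMI in 38 of 87 Gfra1-positive and 21 of 87 Gfra1-negative cells, against 31.7% of the cells with 3 or more Clu UMIs. The gene lies on chromosome 16 at 22381313 to 22439570 of GRCm38 in RefSeq. Etv4 and Bcl6b, which act beside it, did not pass the test, with log2 fold changes of 0.96 and 1.15 (edgeR adjusted p = 0.309 and 0.203).

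Egr2, an immediate early zinc finger factor, was at 147 against 46.5 CPM on plate 3, from 102 and 29 UMIs, but on plate 4 there was 1 UMI in each state. The log2 fold change was 1.60 ± 0.32 (edgeR adjusted p = 0.000474), and it was -0.12 on plate 4 alone. Egr1 was at 290 against 130 CPM on plate 3 and 122 against 98.2 on plate 4 (log2 fold change 1.08 ± 0.24, edgeR adjusted p = 0.00267). Egr4 was at 306 against 185 CPM on plate 3 and 365 against 115 on plate 4 (log2 fold change 0.86 ± 0.22, edgeR adjusted p = 0.0218), and it was called in 8 of 17 alternatives. All 3 factors rose in the fit, and Egr3 had 0 UMIs in these cells.

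Dusp6, the phosphatase that switches ERK off and is itself an ERK target, was at 71.8 against 22.5 CPM on plate 3. On plate 4 it was at 91.2 CPM, from 6 UMIs, against 0 UMIs. Its log2 fold change was 1.86 ± 0.43 (edgeR adjusted p = 0.00495). The other feedback inhibitors did not pass: Spred1, Spred2 and Spry4 had log2 fold changes of 1.01, 1.02 and 1.41, and Spry1 of -0.51, with edgeR adjusted p between 0.266 and 0.949.

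Ccnd2, a D-type cyclin and GDNF target, was at 273 against 144 CPM on plate 3 and 182 against 16.4 on plate 4 (log2 fold change 1.04 ± 0.23, edgeR adjusted p = 0.00233). It was the only called gene among the 14 tested of the list of G1 cyclins, kinases and inhibitors. Over all genes tested 0.438% rose and 0.277% fell. The remaining cyclins of its type, Ccnd1 and Ccnd3, had log2 fold changes of 0.60 and 0.36 (edgeR adjusted p = 0.803 and 0.798).

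**Figure D2:**
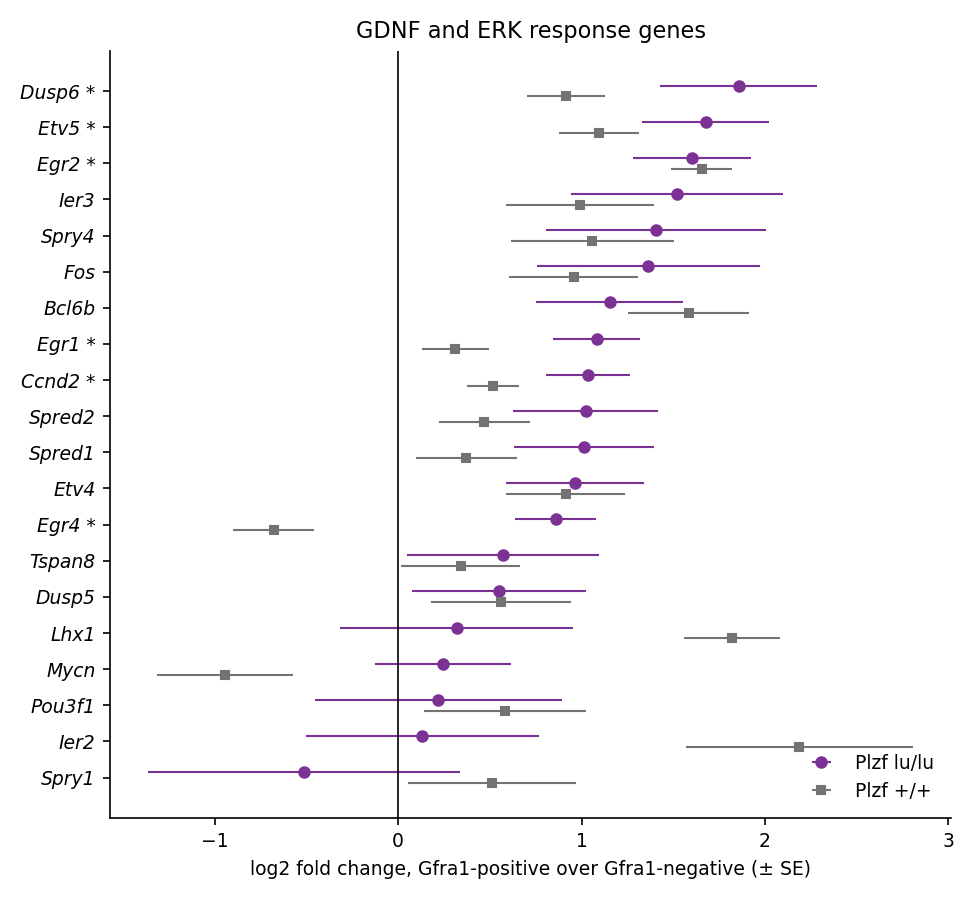
Log2 fold change (Gfra1-positive over Gfra1-negative, with SE bars) of the 20 tested GDNF and ERK response genes in Plzf lu/lu (purple circles) and Plzf +/+ (grey squares), ordered by the Plzf lu/lu value, with an asterisk where the edgeR adjusted p in Plzf lu/lu was under 0.05. In Plzf lu/lu 19 of the 20 points lie right of 0, and Egr4, Mycn and Spry1 lie on opposite sides of 0 in the 2 genotypes.

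The promoters are printed for Gfra1, which defines the states, for Egr2, a called response gene, and for Stra8, the differentiation gene of smallest p among those that fell. They are the 250 bases before a transcription start listed by RefSeq on GRCm38.p6, written 5′ to 3′ on the gene's strand, with motif matches in capitals. Each printed window lies within the span that RefSeq gives for its gene, not upstream of its outermost 5′ end. The window for Gfra1 is chr19:58455399-58455648 on the minus strand, that for Egr2 is chr10:67535249-67535498 on the plus strand, 1 of 5 starts of that gene, and that for Stra8 is chr6:34920698-34920947 on the plus strand.
Gfra1: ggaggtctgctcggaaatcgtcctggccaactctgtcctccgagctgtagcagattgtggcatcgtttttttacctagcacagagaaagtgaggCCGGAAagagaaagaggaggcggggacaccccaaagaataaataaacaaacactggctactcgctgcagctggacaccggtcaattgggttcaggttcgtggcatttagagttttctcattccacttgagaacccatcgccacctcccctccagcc
Egr2: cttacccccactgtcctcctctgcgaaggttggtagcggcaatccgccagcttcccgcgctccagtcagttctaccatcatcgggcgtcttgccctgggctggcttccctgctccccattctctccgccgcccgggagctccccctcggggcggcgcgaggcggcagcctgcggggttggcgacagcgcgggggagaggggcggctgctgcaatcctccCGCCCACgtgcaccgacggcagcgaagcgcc
Stra8: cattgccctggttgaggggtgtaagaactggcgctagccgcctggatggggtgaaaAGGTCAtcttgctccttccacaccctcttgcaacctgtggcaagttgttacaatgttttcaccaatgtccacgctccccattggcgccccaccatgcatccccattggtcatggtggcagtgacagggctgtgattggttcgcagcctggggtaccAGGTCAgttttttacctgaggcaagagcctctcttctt
The motifs searched on both strands were CCGGAA, the core that ETS factors such as ETV5 bind, GTGGGCG, which EGR factors bind, AGGTCA, the repeat unit that retinoic acid receptors bind, and the CArG box of serum response factor. Capitals mark 1 CCGGAA in Gfra1, 1 GTGGGCG on the opposite strand in Egr2 and 2 AGGTCA in Stra8. Over the 32851 promoters of the table the same 250 bases held CCGGAA in 12.0%, GTGGGCG in 7.02%, AGGTCA in 14.02% and a CArG box in 1.47%. The windows of Etv5, Dusp6 and Kit held none of the 4, which says only that these letters are not in those windows.

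Other genes of early spermatogonia rose in part. Of 23 genes of that list 16 were tested, 3 rose (Chd4, Mcam and Etv5, which is also a GDNF response gene) and Uchl1 fell, beside 0.438% and 0.277% of all genes. The median log2 fold change was 0.45, against -0.01 over all genes. Mcam, a surface adhesion molecule used to sort spermatogonia, was at 250 against 120 CPM on plate 3 and 228 against 115 on plate 4 (log2 fold change 1.05 ± 0.23, edgeR adjusted p = 0.00233). Chd4, the chromatin remodeller of the NuRD complex, was at 554 against 326 CPM and 486 against 262 (log2 fold change 0.78 ± 0.16, edgeR adjusted p = 0.00103). Both differed by about as much on plate 4 as on plate 3. Uchl1, a ubiquitin hydrolase widely used to label spermatogonia, was lower in both libraries (log2 fold change -0.49 ± 0.13, edgeR adjusted p = 0.0302, and 0.0710 without the top cell of each sum).

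Of the genes of smallest p that rose, Nipbl, which loads cohesin, stood at 396 against 231 CPM on plate 3 and 456 against 147 on plate 4 (log2 fold change 0.89 ± 0.19, edgeR adjusted p = 0.00108), and was higher in the Gfra1-positive cell of 58 pairs and lower in 16. Malat1, a nuclear noncoding RNA, stood at 779 against 460 CPM and 927 against 508 (log2 fold change 0.78 ± 0.14, edgeR adjusted p = 2.76e-05). When cells with spermatid or Clu transcripts were kept, its log2 fold change was -0.09. Of the 38 genes that rose 31 were higher in both Plzf lu/lu libraries, and 35 had a log2 fold change above 0 in Plzf +/+, where 16 were called. The exceptions were Sdc4, Egr4 and Tmsb4x. Of the 24 that fell, 23 were lower on plate 3 and on plate 4 alike and 23 were below 0 in Plzf +/+, where 11 were called.

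Of the 10 tested genes of differentiating spermatogonia 2 fell, Stra8 and Kit, beside 0.277% of all genes. Stra8, which retinoic acid induces before meiosis, was at 116 against 452 CPM on plate 3 and 60.8 against 344 on plate 4. The log2 fold change was -2.01 ± 0.22 (edgeR adjusted p = 2.74e-16), and it was called also by DESeq2. A Stra8 UMI was present in 24 of 87 Gfra1-positive and 35 of 87 Gfra1-negative cells. Kit, the receptor of differentiating spermatogonia, was at 12.9 against 56.2 CPM on plate 3 and at 0 against 3 UMIs on plate 4 (log2 fold change -2.23 ± 0.57, edgeR adjusted p = 0.0206), and it was called in 8 of 16 alternatives. Kit transcripts were found in 6 Gfra1-positive and 15 Gfra1-negative cells. Of the 60 cells with 3 or more Clu UMIs, 13 had a Stra8 UMI and 3 a Kit UMI. Stra8 was lower in each Plzf lu/lu library, while the Kit counts of plate 4 are too low for a direction. The other 8 tested genes of the list of 13 did not pass, and 4 of them were above 0, among them Dnmt3a at 0.45. The list's median was -0.32, and in Plzf +/+ it was 0.02.

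Crabp1, which encodes a protein that binds retinoic acid in the cell, was at 175 against 398 CPM on plate 3 and 122 against 213 on plate 4 (log2 fold change -1.14 ± 0.21, edgeR adjusted p = 8.40e-05). Dlk1, an imprinted gene for a membrane protein of the Notch ligand family, was at 30.2 against 107 CPM on plate 3 and at 0 against 2 UMIs on plate 4 (log2 fold change -1.88 ± 0.43, edgeR adjusted p = 0.00426). Crabp1 was lower in Gfra1-positive cells on plate 3 and on plate 4, while the Dlk1 counts of plate 4 are too low for a direction.

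**Figure D3:**
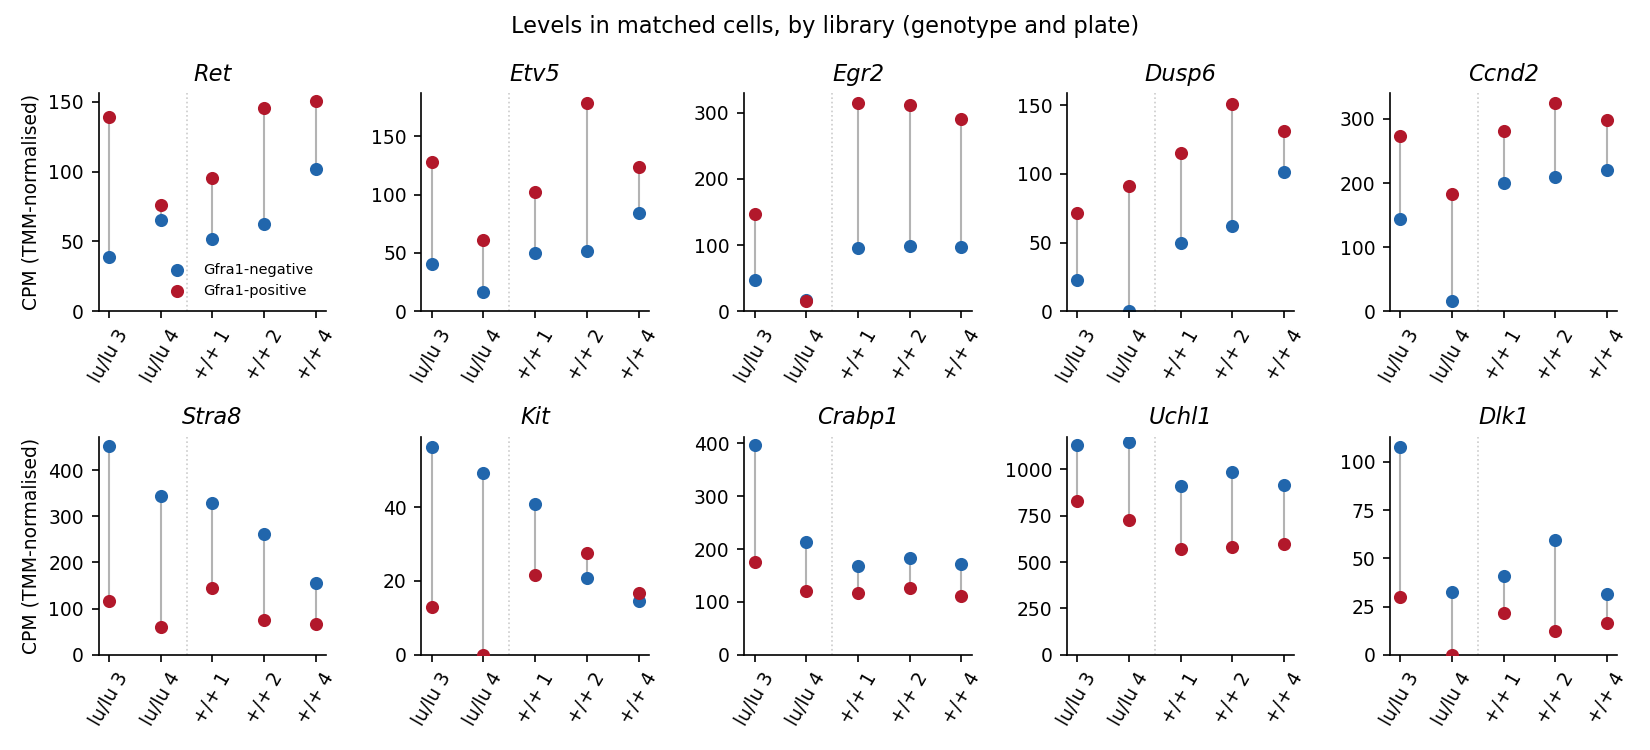
CPM (TMM-normalized, linear axes from 0) of 10 genes in the summed matched cells of each library, with Gfra1-positive sums in red, Gfra1-negative sums in blue and a line joining the states of 1 library. The libraries are Plzf lu/lu plates 3 and 4 and, right of the dotted line, Plzf +/+ plates 1, 2 and 4. Stra8, Crabp1, Uchl1 and Dlk1 are lower in the Gfra1-positive sum of every library, while Egr2 is level on Plzf lu/lu plate 4. The Dlk1 points of Plzf lu/lu plate 4 rest on 0 against 2 UMIs.

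Progenitor genes had members in both directions. Of 19 genes 17 were tested, Crabp1 fell and Tcl1, an AKT coactivator, rose (132 against 51.3 CPM on plate 3, 122 against 32.7 on plate 4; log2 fold change 1.41 ± 0.32, edgeR adjusted p = 0.00388). Over all genes tested 0.277% fell and 0.438% rose. The list's median was -0.42, against -0.01 over all genes. The library medians had opposite signs, at -0.28 on plate 3 and 0.28 on plate 4. Sycp3, a protein of the meiotic chromosome axis, had a log2 fold change of -0.65 ± 0.20 (edgeR adjusted p = 0.100), and Dppa4 one of 0.78 ± 0.27 (edgeR adjusted p = 0.209).

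Of the S and G2/M phase genes tested, 1 was called, and it fell. Over all genes 0.438% were higher and 0.277% lower, and 1 call is too few to compare shares. None of 44 S phase genes passed, 24 were above 0, and the median log2 fold change was 0.01. Of 50 tested G2 and mitosis genes 16 were above 0, the median was -0.17, and Cenpf, a kinetochore protein, fell (302 against 468 CPM on plate 3, 274 against 524 on plate 4; log2 fold change -0.68 ± 0.17, edgeR adjusted p = 0.00976). Without the top cell of each sum its adjusted p was 0.146. Mki67, the proliferation antigen, had a log2 fold change of -0.74 ± 0.28 (edgeR adjusted p = 0.263). Of 16 glycolysis genes 2 rose. One was Pkm, pyruvate kinase, at 695 against 480 CPM and 730 against 360 (log2 fold change 0.62 ± 0.16, edgeR adjusted p = 0.0172). The other was Slc2a3, a glucose transporter, of which a single cell held 56.1% of the UMIs. Its log2 fold change was 2.99 (edgeR adjusted p = 0.00495), and without the top cell of each sum it was 2.01 (edgeR adjusted p = 0.563). None of the 13 germ cell genes passed, 2 of them were above 0, and their median was -0.18. Neither did any of the 5 tested DNA methyltransferase and Tet genes, with a median of 0.12.

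**Figure D4:**
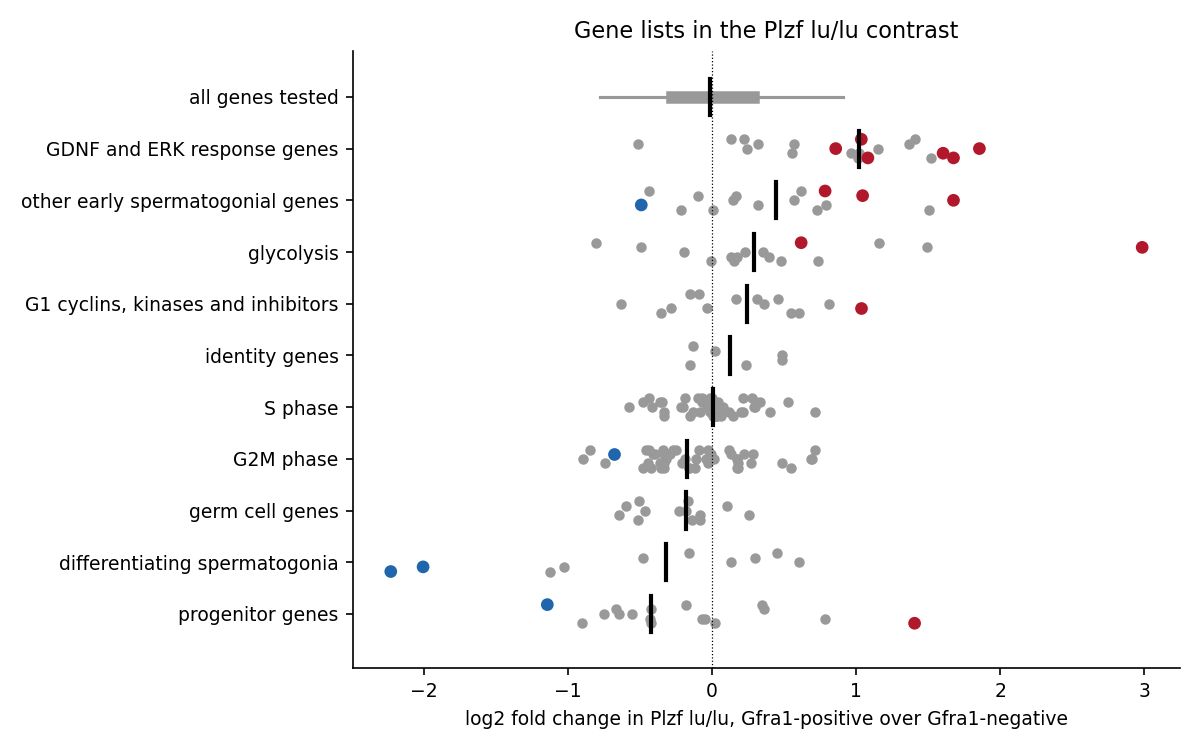
Log2 fold change in Plzf lu/lu of each tested gene of 10 lists, with genes whose edgeR adjusted p was under 0.05 in red (higher in Gfra1-positive) or blue (lower), other genes in grey and a black bar at each list's median; the top row gives the median, the interquartile range and a wider central range of all genes. The GDNF and ERK response genes lie to the right, with a median of 1.02, and Stra8 and Kit lie at the far left.

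Several of the lower transcripts are gene models that share sequence with ribosomal RNA or repeats, so that the counting may split reads among them. Gm26924 took 18862 against 24247 CPM on plate 3 and 10563 against 21073 on plate 4 (log2 fold change -0.65 ± 0.09, edgeR adjusted p = 1.06e-09). The Gfra1-positive cell had more Gm26924 UMIs in 43 pairs and fewer in 44, although the sums differed. Without Plzf lu/lu plate 4 its log2 fold change was -0.35 (edgeR adjusted p = 0.0951). Gm23935, Lars2, Gm15564 and the mitochondrial mt-Rnr1 were lower by 0.70, 0.66, 0.67 and 0.40 on the log2 scale. Gm12260, another gene model, is not counted among those that share sequence, since its sequence was not examined. It had 10 UMIs in 5 Gfra1-positive and 79 UMIs in 23 Gfra1-negative cells of plate 3 (log2 fold change -2.93 ± 0.41, edgeR adjusted p = 3.00e-09). In Plzf +/+ it was called lower too (log2 fold change -1.27 ± 0.24, edgeR adjusted p = 5.70e-05).

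A few calls rested on 1 cell. Of the 38 genes that rose, 7 had over 30% of their Plzf lu/lu UMIs in a single cell, and of the 24 that fell, 1 did. Terf2ip, a telomere protein, was at 28.7 against 276 CPM on plate 3, but 140 of its 172 UMIs in Gfra1-negative cells of that plate came from 1 cell of 2387 UMIs. Its log2 fold change of -3.37 ± 0.34 (edgeR adjusted p = 2.50e-19) became -1.37 (adjusted p = 0.332) when each sum was taken without the cell holding most of the gene's UMIs. Tmsb4x, an actin-binding peptide, had 114 of its 121 UMIs in Gfra1-positive cells in 1 cell of 24187 UMIs. That cell also held 68 of the 84 UMIs of the T and NK cell markers in all matched Plzf lu/lu cells, and the next cell held 2. Another Gfra1-positive cell, of 20584 UMIs with 1 Gfra1 UMI, held most UMIs of Cetn1, Rsph1, Sept12, Slc2a3 and 1700010I14Rik and 9 of the 27 UMIs of Dnah7b. It held 336 UMIs of the spermatocyte list against 48 in the next cell, among them 162 of Ldhc, and 4 spermatid UMIs, which kept it under the limit of 10. Taken without the top cell of each sum, 26 of the 38 higher genes and 14 of the 24 lower genes were called in the same direction, Ret, Etv5, Egr1, Egr2, Dusp6, Stra8 and Crabp1 among them. Kit, with 14.9% of its UMIs in its top cell, had a log2 fold change of -2.10 in that alternative against -2.23 with all cells, and it was not called (edgeR adjusted p = 0.184). This alternative was chosen after seeing the data.

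Markers of other cells were counted in both states. Sertoli cell genes summed to 487 CPM in Gfra1-positive and 375 in Gfra1-negative cells of plate 3, and to 350 and 671 on plate 4, with Fshr and Gdnf at 0 UMIs in all 4 sums. Sox9 and Wt1, which define Sertoli cells, had 1 UMI each in 87 Gfra1-positive and 0 in 87 Gfra1-negative cells. Of the 19 genes of the list, 17 had a UMI in Gfra1-positive and 14 in Gfra1-negative cells of plate 3, and 4 and 10 on plate 4. Ctsl alone held 229 and 156 UMIs on plate 3. Trf had 41 and 16 UMIs on plate 3 and 11 and 2 on plate 4 (edgeR adjusted p = 0.149). Defb19 had 15 in both states of plate 3 and 0 and 6 on plate 4. The Leydig, peritubular myoid, macrophage and erythroid lists summed to at most 21.5 CPM in any state and library, and the endothelial list to 43.3 to 81.9. The T and NK list summed to 112 against 9.63 CPM on plate 3 and to 0 in both states on plate 4. The spermatocyte list, whose genes are in part active in spermatogonia, stood at 1540 against 1412 CPM on plate 3 and 836 against 1277 on plate 4. Without the cell that held 336 of its UMIs, the Gfra1-positive level on plate 3 was 1089, below the Gfra1-negative level as on plate 4. Without the same cell the spermatid list went from 340 to 240 CPM, against 268 in Gfra1-negative cells, and without the cell of the T and NK markers that list went from 112 to 14.9, both alternatives chosen after seeing the data. No tested gene of these lists was called, and the part of these transcripts in the results was not tested beyond the removal of the top cells.

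The identity genes of the stem cell pool other than Gfra1 were not called. Of the 11 genes Id4, Zbtb16, Bmi1, Lin28a, Nanos2 and T were tested. T had 1 UMI in each Plzf lu/lu state and was tested only because of its counts in Plzf +/+. Its test could not have called a difference. Id4, an inhibitor of differentiation factors, was at 103 against 70.6 CPM on plate 3. On plate 4 it was at 60.8 against 65.5, from 4 UMIs in each state. Its log2 fold change was 0.49 with a 95% interval of -0.14 to 1.11 (edgeR adjusted p = 0.749). It had a UMI in 42 of 87 Gfra1-positive cells (48.3%, exact Clopper-Pearson 95% interval 37.4 to 59.2) and 26 of 87 Gfra1-negative cells (29.9%, 20.5 to 40.6). With every cell thinned to 2000 UMIs the shares were 13.8% and 16.1%, so the order turned. In the 60 cells of both genotypes with 3 or more Clu UMIs, of similar depth (median 6523 UMIs), Id4 had a UMI in 31.7%.

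Zbtb16 had a UMI in 11 Gfra1-positive cells (12.6%, 6.48 to 21.5) and 7 Gfra1-negative cells (8.05%, 3.30 to 15.9). The cells with Clu hold Plzf +/+ cells too and set no background for this gene. Its log2 fold change was 0.48 ± 0.64 (edgeR adjusted p = 0.933). Bmi1, a Polycomb protein, was in 48.3% and 56.3% of the cells against 53.3% of those with Clu. Lin28a, an RNA-binding protein of progenitors, was in 27.6% and 28.7% against 11.7%. Its levels of 54.6 against 52.9 CPM on plate 3 and 76.0 against 81.9 on plate 4 gave a log2 fold change of 0.02, with an interval of -0.72 to 0.76. Nanos2 was in 10.3% of both states and in none of the cells with Clu, which allows a share of up to 5% there. T, Eomes, Neurog3, Pax7 and Pdx1 had a UMI in at most 4 cells of either state. The intervals of the shares cover counting error only, while that of the log2 fold change comes from the edgeR standard error.

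Among the Gfra1-positive cells the level of Gfra1 itself varied from 1 to 13 UMIs per cell. On plate 3 the 80 pairs held 34 cells with 1 Gfra1 UMI, 21 with 2 and 25 with 3 or more, of median depth 6696, 7498 and 8419 UMIs, beside 80 cells with none. Ret stood at 36.3 CPM (here without TMM) in cells with no Gfra1 UMI, and at 118, 110 and 174 in cells with 1, 2 and 3 or more. On plate 3 Etv5 was at 37.8, 118, 98.9 and 152. For both genes the 95% Poisson intervals at 0 and 1 Gfra1 UMI did not overlap. On plate 4, with 7, 2, 2 and 3 cells and at most 4 UMIs of either gene in a class, Ret was at 68.0, 125, 97.0 and 56.2 and Etv5 at 17.0, 125, 0 and 56.2, which is not the order of plate 3.

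Levels of other genes on plate 3 are given for the same classes, and differences between genes were not tested. Mcam was at 113 CPM with no Gfra1 UMI, 118 with 1, 220 with 2 and 381 with 3 or more, and Ccnd2 at 136, 179, 242 and 370. The 95% Poisson intervals at 0 and 1 Gfra1 UMI overlapped for both genes. Stra8 went down, at 427, 166, 87.9 and 87.1, and so did Dlk1, at 101, 64.96, 16.5 and 7.26. Crabp1 had no order among positive cells, at 375, 122, 280 and 149. Id4 was at 66.6, 85.3, 43.9 and 156, and on plate 4, from at most 4 UMIs in a class, at 68.0, 62.3, 97.0 and 56.2, so the plates had no common order. On plate 4 Ccnd2 was at 17.0, 125, 291 and 197, from 1, 2, 3 and 7 UMIs. The cells of a plate are 1 library and the classes follow from the count that chose the members, so these levels are a description.

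**Figure D5:**
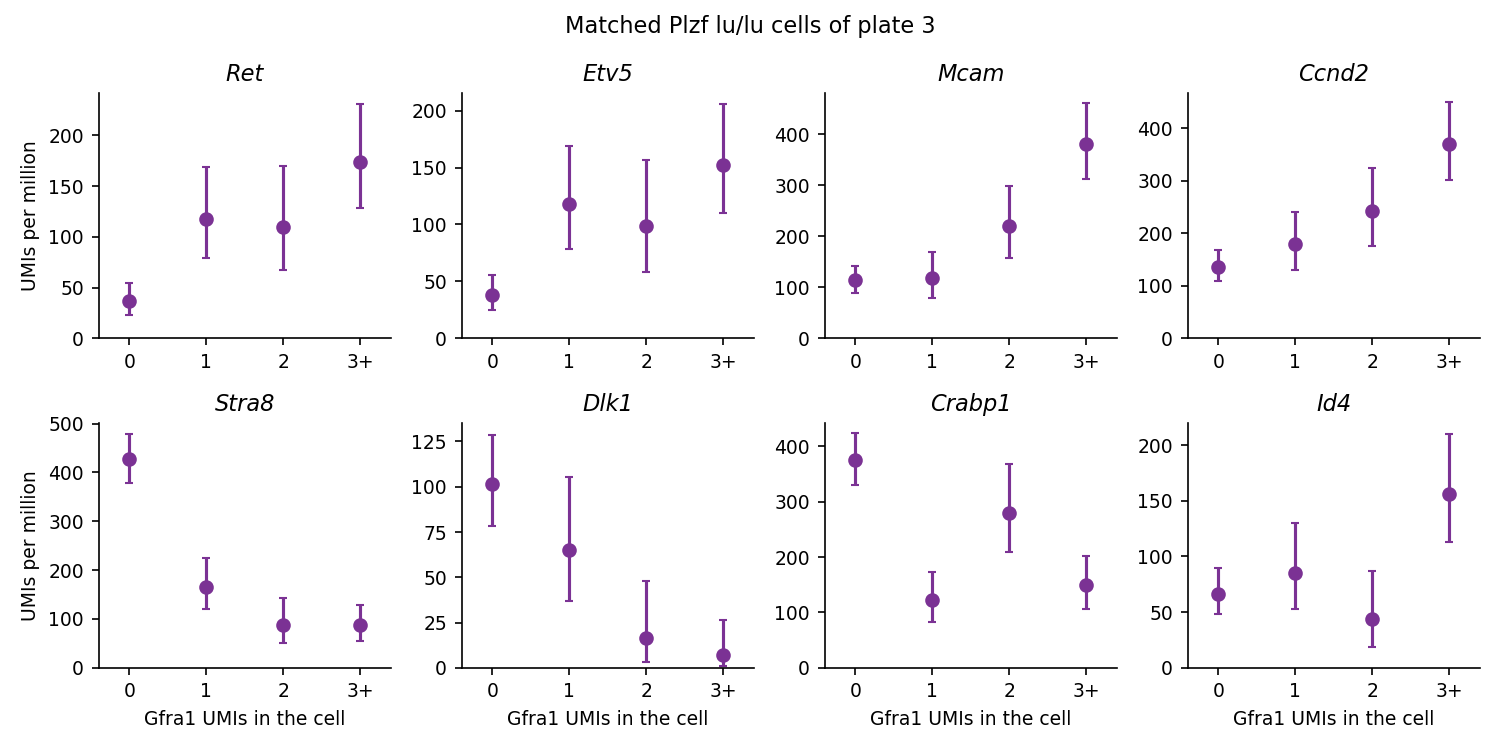
CPM (UMIs scaled by total, without TMM) of 8 genes in the matched Plzf lu/lu cells of plate 3, by the number of Gfra1 UMIs in the cell (0, 1, 2, and 3 or more), with points for the summed cells and bars for exact Poisson 95% intervals of the counts. Mcam and Ccnd2 are highest at 3 or more Gfra1 UMIs (381 and 370), and Stra8 is at 427 with none and 87.1 at 3 or more.

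To ask whether the luxoid mutation changed what goes with Gfra1, the contrast was compared with that of Plzf +/+ cells by an interaction term. In Plzf +/+ cells 101 genes were higher in the Gfra1-positive state (1.16% of those tested) and 133 lower (1.53%), from 220 pairs against 87. The interaction called 3 genes as more positive in Plzf lu/lu (0.0346%) and 2 as more negative (0.0231%). Terf2ip and Tmsb4x, the genes carried by single cells, were 2 of these 5, with differences of -3.02 and 4.35 on the log2 scale.

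The interaction was also called for Egr4 and Sdc4, neither of which passed the test in Plzf +/+ alone (log2 fold changes -0.68 and -0.24, edgeR adjusted p = 0.0687 and 0.362). Egr4 was higher in the Gfra1-positive cells of both Plzf lu/lu libraries, as given, but in Plzf +/+ cells it was at 80.8 against 115 CPM on plate 1, 40.2 against 111 on plate 2 and 66.8 against 79.7 on plate 4. The difference of log2 fold changes was 1.54 ± 0.31 (edgeR adjusted p = 0.00205). Sdc4 was at 318 against 413, 360 against 453 and 446 against 447 CPM in the same order, and the difference was 0.91 ± 0.19 (edgeR adjusted p = 0.00447). Its levels in the Gfra1-positive Plzf lu/lu cells lay above all 3 Plzf +/+ libraries, while its levels in Gfra1-negative cells overlapped. Without Plzf +/+ plate 2 the edgeR adjusted p was 0.493 for Egr4 and 0.360 for Sdc4, without Plzf lu/lu plate 3 it was 0.423 and 0.582, and without Plzf +/+ plate 1 it was 0.0945 for Sdc4. The interaction was called for Egr4 in 9 and for Sdc4 in 8 of 16 alternatives.

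The fifth gene, Gm26924, differed by -0.72 ± 0.11 on the log2 scale (edgeR adjusted p = 1.01e-06). In Plzf +/+ cells its levels were 23046 against 24547 CPM on plate 1, 10059 against 8977 on plate 2 and 27565 against 25093 on plate 4. It varied more between Plzf +/+ libraries than between the states.

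Genes called in Plzf +/+ cells alone were not shown to differ between genotypes. None of the 234 Plzf +/+ calls passed the interaction test, 27 of them were also called in Plzf lu/lu, and 214 had the same sign there. Id4 had a log2 fold change of 1.83 ± 0.24 in Plzf +/+ (edgeR adjusted p = 5.64e-11), from 102 against 31.5, 196 against 31.1 and 117 against 50.7 CPM, beside 0.49 in Plzf lu/lu. The difference was -1.34 ± 0.41 with an edgeR adjusted p of 0.499. Its levels in Gfra1-negative Plzf lu/lu cells (70.6 and 65.5 CPM) were above all 3 of Plzf +/+, and in Gfra1-positive cells the level was within their range on plate 3 (103) and below it on plate 4 (60.8). Lhx1 was at 1.82 in Plzf +/+ and 0.32 in Plzf lu/lu, and Ddit4 at -2.23 and -0.42, with an edgeR adjusted p of 1.00 for both differences. For Egr2 and Chd4 the differences between genotypes were -0.05 ± 0.41 and -0.06 ± 0.20.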

How the data were processed

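Single cells of 2 Plzf lu/lu and 3 Plzf +/+ libraries were analysed. The authors demultiplexed the reads with bcl2fastq 2.18.0.12, aligned them to GRCm38 with STAR 2.5.4a and deposited whole-number UMI counts per gene and cell, not normalized; Picard 2.9.3 is also named in the processing notes. A deposited key of wells and barcodes (unit: other) placed cells on plates. All columns of per-sample values were used (0 left out). Members and gene lists were chosen with earlier results of these data known.

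Cells were filtered and paired as described, and no doublet caller was run. No matched Plzf lu/lu cell had over 4 times the median UMIs. Sums per library and state were tested with edgeR 4.0.16 (R 4.3.3; quasi-likelihood test, TMM, library as block, genotype-specific state terms) with Benjamini-Hochberg adjustment over 8675 genes, leaving out genes of low counts, Gfra1 and the genes of the filters. The biological coefficient of variation was 0.0832. DESeq2 1.42.0 was an alternative, beside other matching, thresholds, thinning and omitted libraries. The scripts were tested on simulated data. Replicates are libraries, and p-values then measure only the spread between these libraries, which may be technical. Shares have exact Clopper-Pearson intervals. UMIs set the depth. Intervals of shares and of UMI counts, and floors of 3 counts, cover counting error only. Intervals of log2 fold changes come from the edgeR standard error.

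Named genes were the identity genes and receptors, the 10 called genes of smallest p in each direction with the same sign in both Plzf lu/lu libraries, the 5 of smallest p in each direction of the interaction, and up to 4 of each other list. Genes outside it, among them Rsph1, Sept12, 1700010I14Rik and Dnah7b, were chosen after their values were seen. A result on 1 named gene is not reported here.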

Additional observations from a re-analysis of the deposited data

Results flagged for a closer look

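The Gfra1 contrast differed between Plzf lu/lu and Plzf +/+ for 5 genes by the interaction term of edgeR. The difference of log2 fold changes (Plzf lu/lu minus Plzf +/+) was 1.54 for Egr4, 0.91 for Sdc4, -0.72 for Gm26924, -3.02 for Terf2ip and 4.35 for Tmsb4x. Over the alternatives the interaction was called for Egr4 in 9 of 16, for Sdc4 in 8 of 16, for Gm26924 in 9 of 16, for Terf2ip in 10 of 16 and for Tmsb4x in 8 of 14. The values of Terf2ip and Tmsb4x rested on 1 cell each, as given above. For Egr4 the difference was between 1.25 and 2.31 over the alternatives, and for Sdc4 it was between 0.64 and 1.03, above 0 in every alternative run.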

How the results depend on the processing

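The number of genes called moved with most choices, and the cause was not tested. Counts at an unadjusted p under 0.05 stand beside some of them. Each was below the share of 0.05 of genes tested that is expected without any difference. Genes higher in Gfra1-positive cells, 38 as reported, were 22 with matching within 0.05 log2 units, 4 with cells thinned to 2000 UMIs, 58 with at least 2 Gfra1 UMIs, 0 by DESeq2 (116 at an unadjusted p under 0.05; edgeR 38), 11 without the library block and 5 with Plzf lu/lu libraries alone. Genes lower, 24 as reported, were 13, 3, 47, 3, 4 and 9 in the same order, 100 with spermatid and Clu cells kept and 14 without the top cell of each sum. With 1 library left out they ranged from 0 to 40 higher and from 1 to 23 lower, the lowest values being without Plzf lu/lu plate 3, when the lone Plzf lu/lu library is assumed to vary like the others. The 5 and 9 genes of the Plzf lu/lu libraries alone were all among the reported calls. Genes called in the difference between genotypes, 5 as reported, were 0 with thinned cells (172 at an unadjusted p under 0.05), 2 with spermatid and Clu cells kept, 0 by DESeq2 (69), 1 without the library block, 3 without the top cells, and 1 to 5 with a library left out.

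The median of the GDNF and ERK response genes was 0.98 to 1.55 with a library left out. That of progenitor genes was 0.14 with thinned cells and -0.42 to 0.13 with a library left out. That of differentiating genes was -0.63 with matching within 0.05, -0.77 with at least 2 Gfra1 UMIs, and -0.72 to -0.30 with a library left out. The share of cells with Id4 was 13.8% and 16.1% after thinning and 19.5% and 14.9% at 2 or more UMIs in Gfra1-positive and Gfra1-negative cells, and 42.9% to 48.8% and 28.8% to 42.9% with a Plzf lu/lu library left out. For Zbtb16 the shares were 1.15% and 2.30%, 3.45% and 2.30%, and 12.5% to 14.3% and 0% to 8.75%. Directions turned for Malat1 (-0.090 with spermatid and Clu cells kept), Cetn1 (-0.60 with at least 2 Gfra1 UMIs and -0.39 with spermatid and Clu cells kept), Egr2 (-0.12 to 1.67 with a library left out, lowest without Plzf lu/lu plate 3) and the difference of Tmsb4x (-6.12 to 4.995 with a library left out, lowest without Plzf lu/lu plate 3). Stra8, Fyn and Nipbl passed in 15 of 17 alternatives, Etv5 and Crabp1 in 14, Ret in 13, Egr4 in 8 and Kit in 8 of 16. With 7 pairs of cells, plate 4 limits what could be detected there. No paired analysis was possible between the genotypes because they share a single plate, plate 4, and the replicate numbers only name libraries. The states of 1 library were blocked in the fit as reported.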
